A study of Mus musculus with 4 samples.

Results

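The divergent promoters described here are stretches of mouse DNA from which 2 protein-coding genes are transcribed in opposite directions, away from each other. Pairs were taken from the GENCODE M21 annotation of mouse build GRCm38 (mm10) where the genes lay on opposite strands and their 5′ ends were at most 1 kb apart without overlap. This rule gave 754 pairs with 1487 genes, of which 21 belonged to more than 1 pair, out of 21938 coding genes (6.78%). The region of a pair was the span between the 5′ ends plus 1 kb on each side. The median distance between the 5′ ends was 129.5 bp, with quartiles of 67 and 240 bp, and 618 pairs (82.0%) lay within 300 bp. A further 895 coding genes overlapped a neighbour head to head and were kept apart, and the remaining 19556 genes served as non-divergent promoters.

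The measurement was chromatin immunoprecipitation and sequencing (ChIP-seq) of histone H3 trimethylated at lysine 4 (H3K4me3) in hippocampal tissue of adult male B6CASTF1/J mice, an F1 hybrid, aged 2 months. The biological replicates were pool D (number 1) and pool C (number 2), which are given below as D and C. Each combined 7 tissue samples and was sequenced as 2 technical replicate libraries that share 1 alignment. Where a parenthesis holds only a pair of values, the first is from pool D. The labels name no treatment and no other tissue or genotype. The deposited peak lists were 1 from pool D (24690 peaks, 35.0 Mb), 1 from pool C (34193 peaks, 48.0 Mb), 1 called on both pools together and 1 of replicated peaks (27063 peaks, 41.5 Mb), which was the main list. Counting every coding start site of a gene, all 6 excitatory and hippocampal markers, 4 of 4 neuronal, 3 of 3 astrocyte, 3 of 3 oligodendrocyte, 2 of 2 inhibitory and 2 of 2 endothelial markers carried a replicated peak, 1 of 3 microglial markers did (0 in D and 3 in C), and 0 of 5 markers of other tissues did. Within 1 kb of the gene 5′ end alone, the rule used below for genes, fewer markers carried a replicated peak. These were 6 of 6 excitatory and hippocampal, 3 of 4 neuronal, 3 of 3 oligodendrocyte and 1 of 3 astrocyte markers. The counts were 1 of 2 for inhibitory, 1 of 2 for endothelial, 0 of 3 for microglial and 0 of 5 for other tissues, the same in both pools. In a tissue of mixed cells, a peak in few cells and a weak peak in many cannot be told apart.

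H3K4me3 lies on nucleosomes around the start sites of active and poised genes and is written by SET1 and MLL complexes, which are drawn to unmethylated CpG-rich DNA. Many mammalian promoters are CpG islands from which transcription starts on both strands, and a bidirectional coding promoter is the case in which both transcripts are messenger RNAs. Such pairs are known to be common among genes of DNA repair, mitochondria and other basic cell functions, and the H2A and H2B histone genes are a classical example.

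The DNA between the 5′ ends shows what the members share and how they vary. The sequences below are the whole stretch between both 5′ ends on the plus strand of GRCm38, so the gene named first is read leftwards and the gene named last rightwards. Capitals mark exact matches, on either strand, to 8 motifs: the SP/KLF box GGGCGG, the NF-Y box CCAAT, the ETS core CCGGAAG, the NRF1 site CGCATGCG, the YY1 site AAGATGGC, the CRE TGACGTCA, the E-box CACGTG and the TATA box TATAAA. Matches may share bases, and capitals then run on. The first set are marked pairs with well-known genes, chosen to show a short GC-rich gap (Hadha/Hadhb), repeated CCAAT boxes (Mrps12/Sars2), a single NRF1 or YY1 box (Srsf7/Ttc39d and Mepce/Zcwpw1 in that order), an even domain (Ndufaf2/Ercc8), the broadest domain (Cdc40/Wasf1) and a domain that ended before 1 of its 5′ ends (Rad51c/Tex14).
Hadha/Hadhb (chr5:30155163-30155247): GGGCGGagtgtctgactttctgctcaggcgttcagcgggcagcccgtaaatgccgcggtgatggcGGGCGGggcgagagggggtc
Mrps12/Sars2 (chr7:28741821-28741991): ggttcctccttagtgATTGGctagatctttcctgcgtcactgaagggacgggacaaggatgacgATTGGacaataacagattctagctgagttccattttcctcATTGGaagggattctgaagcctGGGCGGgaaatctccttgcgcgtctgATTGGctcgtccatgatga
Srsf7/Ttc39d (chr17:80207308-80207459): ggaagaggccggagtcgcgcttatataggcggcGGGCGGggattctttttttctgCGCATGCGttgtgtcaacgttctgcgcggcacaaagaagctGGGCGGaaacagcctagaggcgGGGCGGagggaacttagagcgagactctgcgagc
Mepce/Zcwpw1 (chr5:137787656-137787797): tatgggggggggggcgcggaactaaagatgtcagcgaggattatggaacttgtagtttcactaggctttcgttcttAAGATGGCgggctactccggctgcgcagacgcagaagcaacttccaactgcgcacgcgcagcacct
Ndufaf2/Ercc8 (chr13:108158624-108158730): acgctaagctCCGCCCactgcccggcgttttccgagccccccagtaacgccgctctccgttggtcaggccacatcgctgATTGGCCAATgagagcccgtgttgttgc
Cdc40/Wasf1 (chr10:40883312-40883474): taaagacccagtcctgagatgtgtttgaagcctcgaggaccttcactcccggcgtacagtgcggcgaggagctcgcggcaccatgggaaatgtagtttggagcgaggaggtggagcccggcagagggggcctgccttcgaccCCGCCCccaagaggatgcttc
Rad51c/Tex14 (chr11:87404955-87405064): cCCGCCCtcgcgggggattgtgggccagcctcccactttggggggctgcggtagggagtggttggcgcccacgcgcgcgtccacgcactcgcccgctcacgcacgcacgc

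The second set are pairs without a peak in any of the 4 lists. Patl2/Terb2 and Lypd4/Dmrtc2 hold CCAAT and GGGCGG matches, and Nmur1/Tex44 and Asb12/Pfn5 hold none of the 8 motifs.
Patl2/Terb2 (chr2:122186190-122186271): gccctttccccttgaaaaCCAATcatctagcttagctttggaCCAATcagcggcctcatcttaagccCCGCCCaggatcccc
Lypd4/Dmrtc2 (chr7:24869942-24870056): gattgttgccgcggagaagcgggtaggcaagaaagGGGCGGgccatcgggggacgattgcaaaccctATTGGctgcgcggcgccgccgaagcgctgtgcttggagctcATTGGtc
Nmur1/Tex44 (chr1:86426229-86426328): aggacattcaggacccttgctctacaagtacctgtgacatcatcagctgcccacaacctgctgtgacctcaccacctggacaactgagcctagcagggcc
Asb12/Pfn5 (chrX:95557988-95558103): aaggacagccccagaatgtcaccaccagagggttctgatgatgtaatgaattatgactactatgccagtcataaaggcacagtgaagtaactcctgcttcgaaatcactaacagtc

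Nearly all divergent pairs carried H3K4me3 in hippocampus. A peak shared at least 1 bp with the region of 724 of the 754 pairs (96.0%) in the replicated list, 722 (95.8%) in pool D and 725 (96.2%) in pool C, which is 96.0 ± 0.281% (mean ± SD over pools, n = 2). Over all coding genes, the share with a peak within 1 kb of the gene's 5′ end was 62% in the replicated list, 60.7% in pool D and 63.3% in pool C. Counted the same way per gene, 1428 of the 1487 paired genes (96.0%) were marked, against 11302 of the 19556 non-divergent genes (57.8%), and the latter share was 57.8 ± 2.05% over the pools (n = 2). The difference between the classes was 39.4 percentage points in pool D and 36.8 in pool C, many times the spread between pools. Genes that overlapped head to head were marked as often (96.2%), and non-divergent genes with a non-coding gene starting divergently within 1 kb lay between (85.1% of 819). Paired genes are not independent observations, since both members usually share 1 peak.

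**Figure D1:**
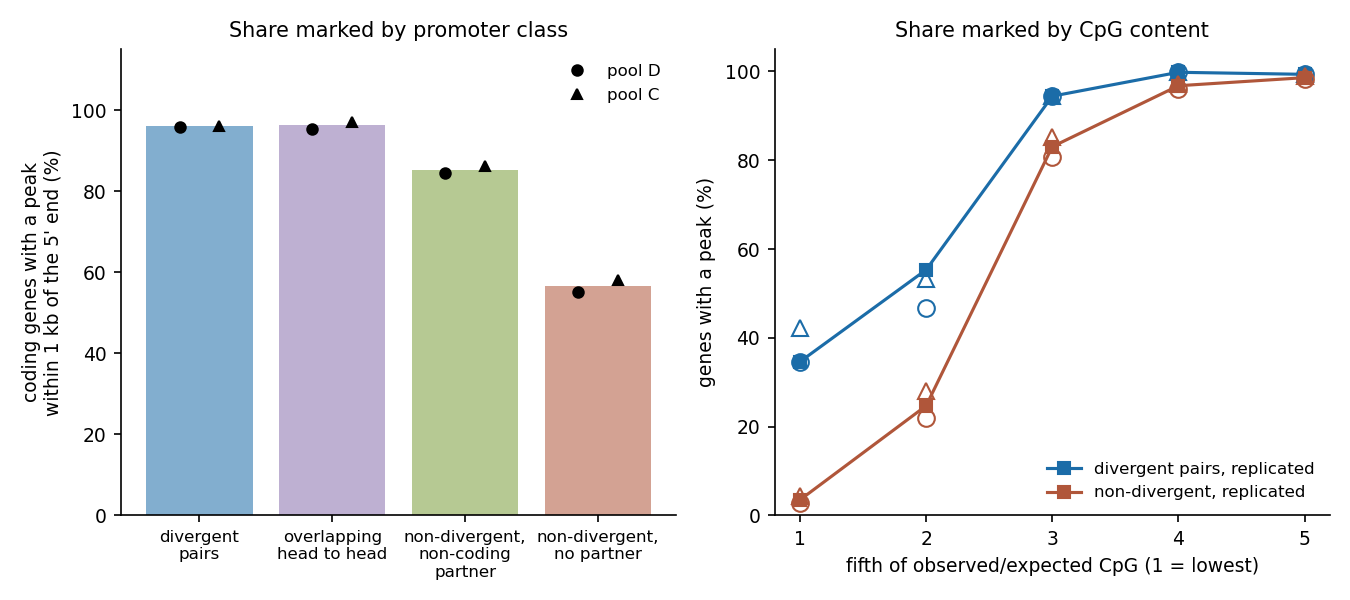
Left, share of coding genes (%) with a replicated-list peak within 1 kb of the 5′ end by promoter class (bars), with the pool D (circles) and pool C (triangles) lists; right, the same share by quintile of the observed-to-expected CpG ratio for divergent (blue) and non-divergent (brown) genes, with squares for the replicated list and open circles and triangles for pools D and C. Divergent genes stand at 96.0% and non-divergent genes without a partner at 56.6%, and the classes meet in the upper quintiles of CpG content.

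The divergent promoters were richer in CpG than the others, and the shares differed least among CpG-rich promoters. Within 500 bp of the 5′ end the median ratio of observed to expected CpG was 0.775 for paired genes and 0.485 for non-divergent genes, and the median GC content was 59.8% and 53.9%. All coding genes were divided into quintiles of that ratio. In the highest quintile 99.4% of the 612 paired genes and 98.6% of the 3437 non-divergent genes were marked, and in the next lower one 99.8% and 96.8%. In the middle quintile the shares were 94.4% and 83.1%. Below it 26 of 47 paired genes (55.3%) were marked against 24.7% of non-divergent genes, and in the lowest 9 of 26 (34.6%) against 3.50%. The values at low CpG thus rest on few paired genes. The 1 kb window of a paired gene also holds its partner's 5′ end, so a peak of the partner can mark it. In the lowest quintile a domain covered the gene's own 5′ end at 0 of 26 paired genes and 42 of 4347 non-divergent genes. In the next quintile it did so at 13 of 47 and 688 of 4293.

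Motif matches in the window from 250 bp before to 50 bp after the 5′ end also set the classes apart. GGGCGG was found at 68.9% of paired genes, 40.5% of non-divergent genes and 43.0% of all coding genes, and CCGGAAG at 27.3%, 9.09% and 10.8%. AAGATGGC was found at 8.20%, 2.52% and 2.92%, CGCATGCG at 5.25%, 2.42% and 2.61%, and TGACGTCA at 4.51%, 2.26% and 2.43%. CACGTG was found at 11.4%, 7.47% and 7.75%, and CCAAT at 44.0%, 38.9% and 39.0%. TATAAA went the other way, at 4.10%, 13.6% and 12.6%. Among marked genes alone the order was the same, with CCGGAAG at 28.2% of paired and 13.9% of non-divergent genes and TATAAA at 3.99% and 7.56%. There the shares lay closer for every motif but CCAAT (43.6% and 37.8%), among them GGGCGG (70.45% and 62.1%) and CACGTG (11.8% and 10.1%). Non-divergent genes with a non-coding partner, marked or not, had GGGCGG at 66.2%, CCGGAAG at 19.8% and TATAAA at 6.23%. The windows of a close pair overlap, so both of its genes can be counted for 1 match.

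At most pairs a single peak ran across both 5′ ends. In the replicated list this held for 646 of the 724 marked pairs (89.2%), and the share was 85.0% in pool D and 91.2% in pool C (88.1 ± 4.34%, SD, n = 2). Another 31 pairs had a separate peak over each 5′ end, 40 had a peak over 1 end only and 7 had a peak in the region over neither. One shared peak was found at 97.7% of pairs up to 100 bp apart, 86.9% of those over 100 and up to 300 bp apart and 74.2% of those beyond 300 bp. The midpoint between the 5′ ends lay in a peak at 92.8% of marked pairs (88.2% in pool D and 94.3% in pool C). Just inside the limit of the rule, Btf3l4/Txndc12 (987 bp apart), Asphd1/Sez6l2 (981 bp) and Zfyve26/Rad51b (978 bp) each had 1 peak over both ends, of 3706, 4773 and 2500 bp. Just outside it, Gpr108/Trip10 (1009 bp) and Sgsm2/Tsr1 (1011 bp) also had 1 peak over both ends, and Serpina7/4930513O06Rik (1007 bp) had no peak. Of the 46 pairs over 1000 and up to 1500 bp apart, 38 (82.6%) were marked, 16 of them by 1 peak over both ends.

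The strongest point of the peak seldom lay between the genes, a share that depended on which pairs were taken. The summit of the strongest peak lay on the side of the minus-strand gene at 335 pairs, on the side of the plus-strand gene at 366 and between the 5′ ends at 23 (3.18%, 3.19% in pool D and 3.17% in pool C). On a gene's side it lay a median of 220 bp downstream of the 5′ end (D 218 and C 228 bp). With a largest distance of 500 bp between the ends 1.82% of summits lay between them. With overlapping pairs included it was 19.3%. The stretch between overlapping 5′ ends lies downstream of both, inside both genes, so that share is not one of summits in a gap. No summit lay between the ends of pairs up to 100 bp apart, where the gap takes up a median of 2.32% of the domain. For pairs over 300 bp apart the gap took up 16.0% of the domain and 14.1% of summits lay in it. Gart/Son was such a pair, 554 bp apart, and its summit lay between the ends in all 3 lists, 263 bp from the nearer 5′ end in the replicated and C lists and 230 bp from it in D. Gart encodes an enzyme of purine synthesis and Son a splicing factor.

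**Figure D2:**
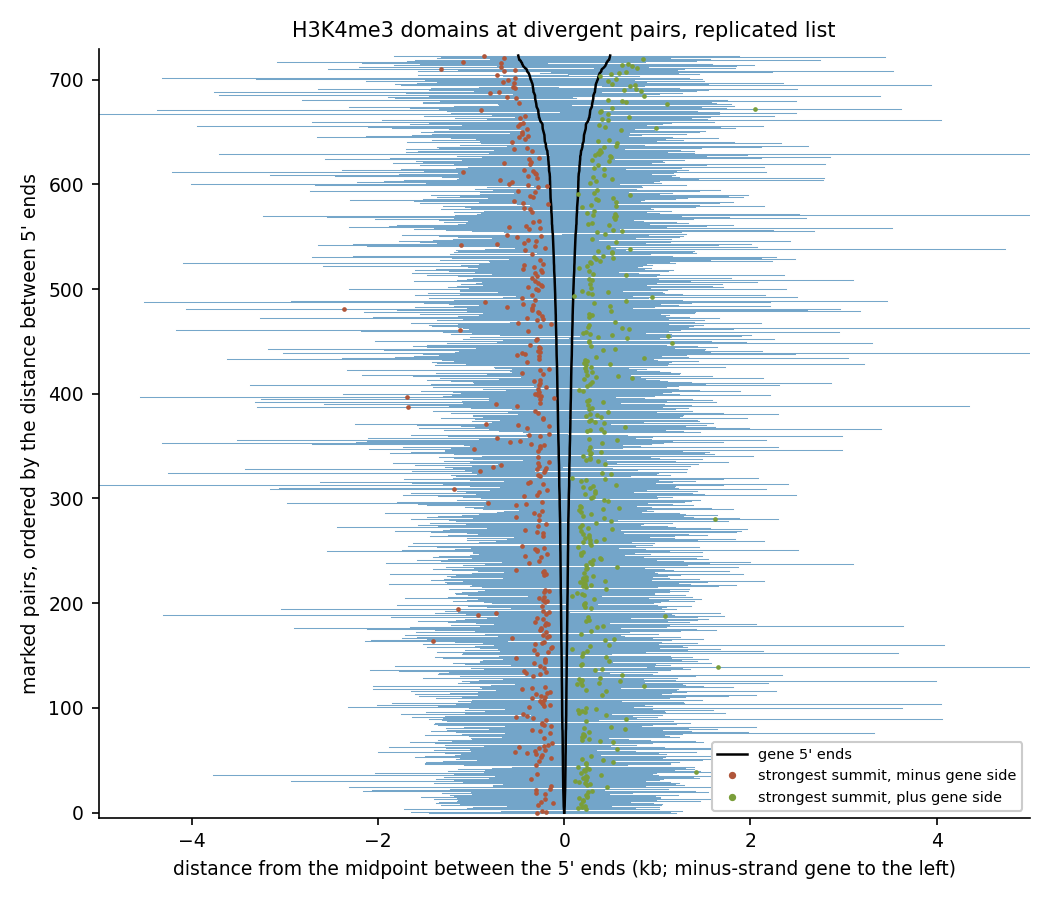
H3K4me3 domains (blue lines, joined peaks of the replicated list) at the 724 marked pairs, in kb from the midpoint between the 5′ ends, ordered by that distance, with the 5′ ends as black lines; dots are the summits of the strongest peak on the side of the minus-strand gene (335, brown) or the plus-strand gene (366, green), and the 23 summits between the ends are not drawn. The axis ends 5 kb from the midpoint, so the longest domains are cut. Summits form a band on each side of the gap.

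The domain of a pair was broader than that of a single promoter, but it reached less far into each gene. A domain was made of peaks within 1 kb of each other. Its median breadth was 2548.5 bp at divergent pairs (D 2320 and C 2725 bp, 2522.5 ± 286 bp, SD, n = 2) and 2096 bp at non-divergent promoters (1901.5 and 2259 bp, 2080 ± 253 bp). Breadth was larger in pool C in both classes, so the classes were compared within a list. Divergent domains were 1.22-fold broader in the replicated list, 1.22-fold in pool D and 1.21-fold in pool C. Counted per gene in the replicated list, the median was 2546 bp for paired genes. It was 2504 bp for non-divergent genes with a non-coding partner and 2488 bp for genes that overlapped head to head. In the highest CpG quintile paired and non-divergent genes had medians of 2722.5 and 2606 bp, and in the middle one 2206 and 1734 bp. Downstream of its own 5′ end a paired gene's domain reached a median of 1149 bp, and a non-divergent gene's 1470 bp. In pool D these values were 1047.5 and 1329 bp and in pool C 1230 and 1595 bp. Upstream, where the partner lies, the domain reached 1299 bp at paired genes, 847 bp at genes with a non-coding partner and 576 bp at genes with neither. The shorter downstream reach of paired genes was found in every CpG quintile with paired genes to measure, from 851 against 1180 bp in the next to lowest (13 paired genes) to 1250.5 against 1753 bp in the highest.

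**Figure D3:**
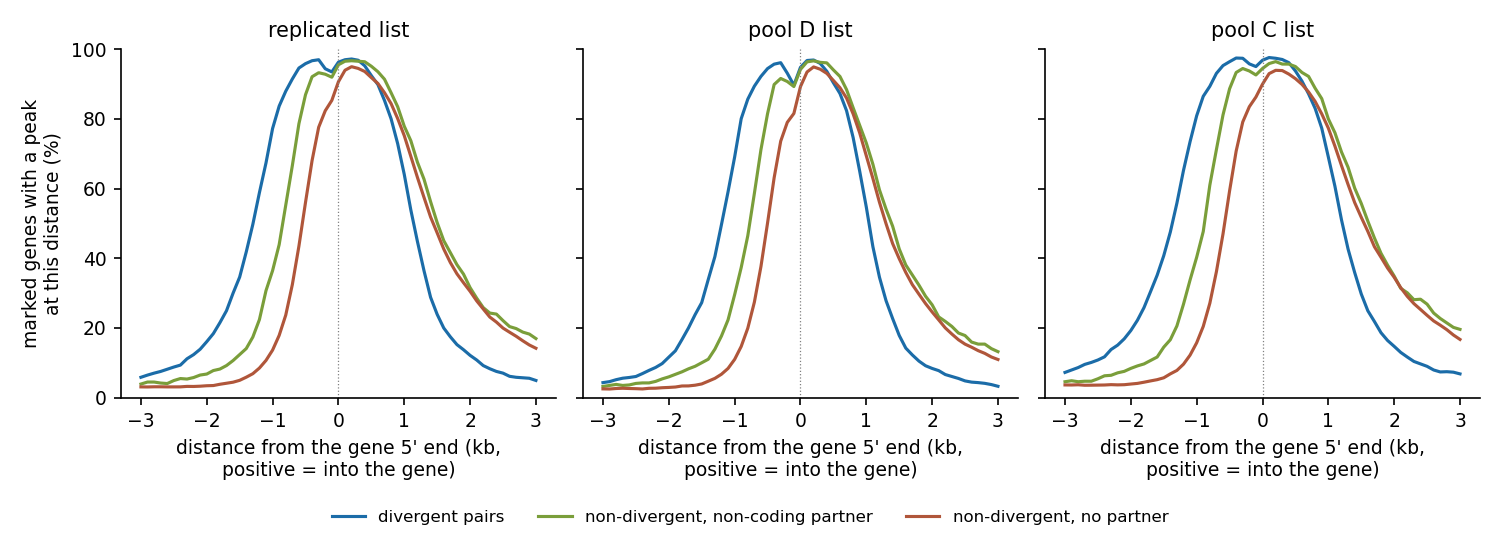
Share of marked genes (%) with a peak at each distance from the gene 5′ end (kb, positive into the gene) in the replicated, pool D and pool C lists, for divergent pairs (blue) and for non-divergent genes with (green) and without (brown) a divergent non-coding gene. In the replicated list 77.2%, 36.4% and 13.6% were covered 1 kb upstream and 64.1%, 77.9% and 75.2% 1 kb downstream; the 2 classes with a partner show a small dip just upstream of the 5′ end.

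Very broad and very narrow domains were both less frequent at divergent pairs. A breadth of 5 kb or more was found at 4.62% of paired genes and 6.79% of non-divergent genes, and one under 600 bp at 0.420% and 3.18%. For non-divergent genes with a non-coding partner these shares were 10.6% and 0.861%, and for genes that overlapped head to head 5.11% and 1.63%. The strongest peak ranked higher too, with a median signal percentile within the replicated list of 83.6 for paired genes and 73.4 for non-divergent ones. It was 77.9 for those with a non-coding partner and 82.85 for genes that overlapped head to head. The signal is the authors' own value per peak and was used only as a rank within 1 list. Wider pairs had broader domains, with medians of 2430, 2560 and 2886 bp in the 3 classes of distance. The longer of both reaches was 1378, 1433 and 1465.5 bp and the shorter 954, 942 and 901 bp in the same classes.

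The pools differed little in which divergent pairs were marked. Of the 725 pairs marked in either pool, 722 were marked in both, 3 in pool C only and 0 in pool D only. The 3 were Stap2/Mpnd, Ifit1bl2/Ifit1 and Sncg/Mmrn2, so 0.414% of pairs marked in either pool were in 1 pool only, against 4.92% of non-divergent genes in pool C only. Ifit1, an interferon-induced gene, had a peak of 931 bp over both ends in pool C and none in the replicated list. At Sncg/Mmrn2, with the gene of the neuronal protein gamma-synuclein and that of an endothelial matrix protein, a peak of 276 bp in pool C lay over neither 5′ end. The domain was broader in pool C at 696 pairs (96.4%), by a median of 1.16-fold over pairs. The median log2 ratio of breadth in C over D was 0.215 at pairs and 0.235 at non-divergent genes. Breadth differed by over 1.5 times at 5.40% of pairs and 13.5% of non-divergent genes. Unequal sequencing depth, which the files do not give, cannot be told apart from a difference between the pools here.

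Domains leaned to the same gene in both pools. Among 700 pairs with a domain past both ends, the longer reach was a median of 1.49 times the shorter, 354 pairs (50.6%) had reaches within 1.5 times of each other and 90 (12.9%) had one over 3 times the other. The longer reach lay on the same side in both pools at 610 of 699 pairs (87.3%). Across these pairs the log2 ratio of the reaches had Pearson's r = 0.898 and Spearman's rho = 0.914 between pools, a description over promoters that share the same DNA sequence in both. The side of the summit was the same at 572 of 690 pairs (82.9%). The longer reach lay on the side with more CpG in the first kb of the gene at 498 of 694 pairs (71.8%, 71.4% in pool D and 71.2% in pool C). This share rose with the imbalance, from 52.9% where the sides differed by 1 to 10 CpG to 75.7% at 11 to 30 and 88.2% above 30. Gene length showed no such relation, since the longer reach lay in the longer gene at 48.6% of pairs.

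**Figure D4:**
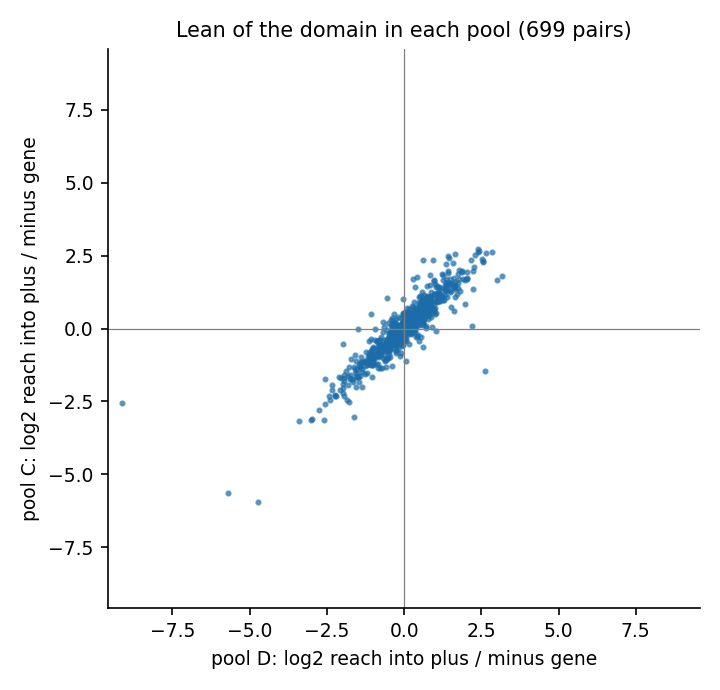
Log2 ratio of the domain's reach into the plus-strand gene over its reach into the minus-strand gene in pool D (x) and pool C (y), 1 point for each of 699 pairs. Of these, 610 lie in the quadrants where both pools lean to the same gene.

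Abhd12/Gins1 was the most one-sided pair in the replicated list. Abhd12, a lipid hydrolase of the brain, carried 3430 bp of the domain (D 3469 and C 3400 bp), and Gins1, part of the replication helicase, 66 bp (66 and 68 bp). Polr3a, the largest subunit of RNA polymerase III, carried 1110 bp and the ribosomal protein gene Rps24 22 bp (2 and 187 bp). Mepce, which caps the 7SK RNA, carried 4481 bp and Zcwpw1, a meiotic histone reader, 474 bp. At Rsrc2/Kntc1 the reaches were 3852 and 441 bp, where Kntc1 acts at the kinetochore of dividing cells. At the other extreme stood Ndufaf2/Ercc8, a complex I assembly factor and a nucleotide excision repair gene, with 954 and 953 bp. In the single pools these were 954 and 751 bp (D) and 812 and 972 bp (C), so they were less even in each pool alone. Washc5/Nsmce2 reached 880 and 879 bp (D 839 and 879 bp, C 889 and 883 bp).

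A list of 25 candidate pairs of well-known genes was held against the rule. The rule was met by 11, and all 11 were marked, beside 96.0% of all pairs. Of the rest, 12 have 5′ ends that overlap in this annotation, Hspd1/Hspe1 and Surf1/Surf2 among them, and 2 lie on the same strand, so that they are no divergent pairs at all. Hadha and Hadhb, the subunits of the mitochondrial trifunctional protein of fatty acid oxidation, lie 86 bp apart under a domain of 2777 bp (D 2583 and C 3449 bp). Mrps12 and Sars2, a mitochondrial ribosomal protein and the mitochondrial seryl-tRNA synthetase, shared 1858 bp (1824 and 1875 bp). Pdcd10/Serpini1, with the gene of the neuronal protease inhibitor neuroserpin, was covered by 1 peak of 3939 bp in the replicated list and by 2 separate peaks in pool D.

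Genes of DNA repair were frequent among the pairs. Of 84 listed repair genes 29 (34.5%) were members, against 6.78% of all coding genes. All 29 were marked in every list, beside 96.0% of all paired genes, and the median breadth was 2016 bp, against 1730 bp for 46 marked of 49 non-divergent repair genes. At Atm/Npat, with the DNA damage kinase and an activator of histone genes, separate peaks lay over each 5′ end in the replicated and pool D lists and 1 peak in pool C, with domains of 2595, 2543 and 2934 bp. Mcm4/Prkdc, a replication helicase subunit and the DNA-dependent protein kinase, had 1972 bp (1919 and 2106 bp). Wrap53/Trp53 had 5325 bp (4496 and 5550 bp), with 3110 bp in Wrap53 and 2110 bp in Trp53.

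Brca1/Nbr1 and Rad51c/Tex14 were covered at 1 end only in the replicated list. At Brca1/Nbr1 a peak covered the 5′ end of Nbr1, an autophagy receptor gene, and no peak covered that of Brca1 in any of the 3 lists, although the joined domain reached 560 bp into Brca1 (D 375 and C 609 bp). At Rad51c/Tex14 the domain of 1260 bp (1133 and 1412 bp) lay over Rad51c, a recombination gene, and ended 74 bp short of the 5′ end of Tex14, a gene of germ cell bridges (179 and 70 bp short). In pool D it also ended short of the 5′ end of Rad51c. The GC content of their gap, printed above, is 75.5%.

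**Figure D5:**
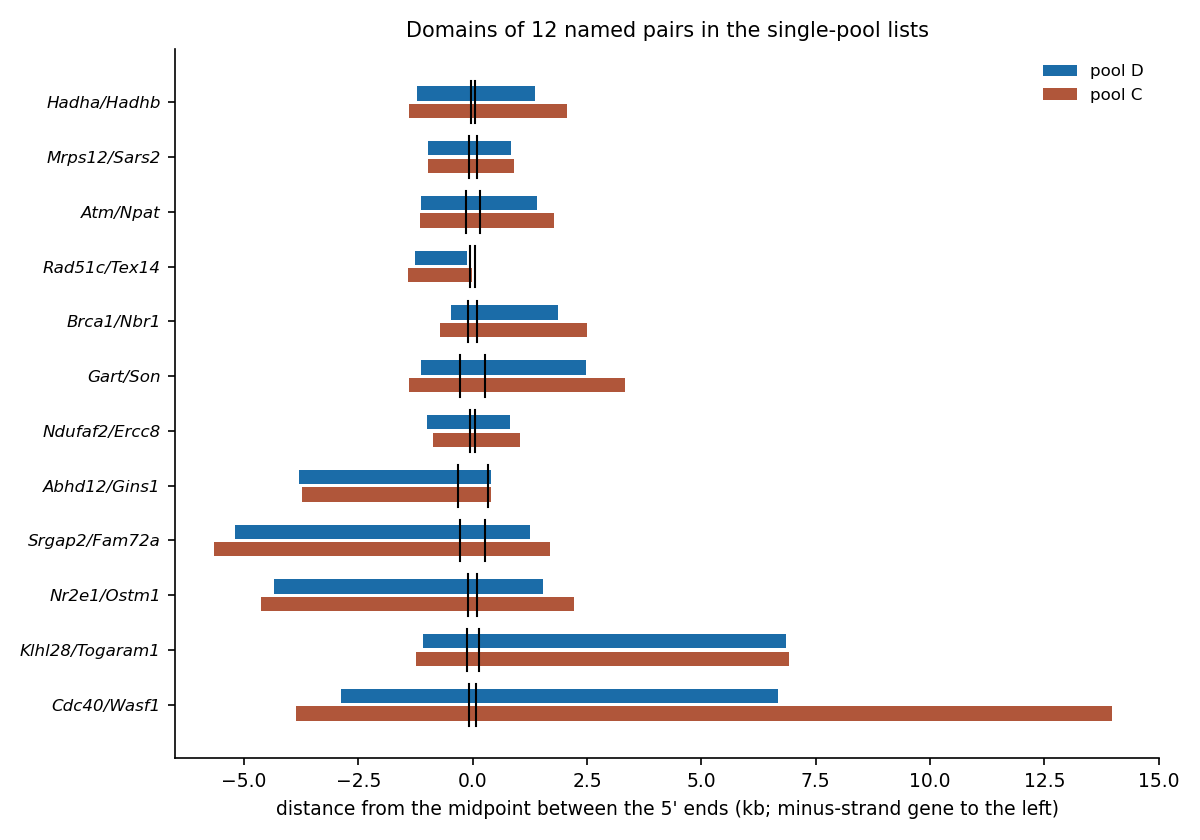
Domains of 12 named pairs in the pool D (blue) and pool C (brown) lists, in kb from the midpoint between the 5′ ends, with the 5′ ends as black ticks and the minus-strand gene to the left. The domain of Rad51c/Tex14 stops short of Tex14, and that of Cdc40/Wasf1 is the broadest and differs most in bp between pools (9546 and 17838 bp).

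Other basic cell functions were also well represented, while most neuronal groups were not. Against 6.78% of all coding genes, 32.1% of RNA polymerase subunit genes (9 of 28), 23.1% of mitochondrial ribosomal protein genes (18 of 78), 22.6% of respiratory chain genes (19 of 84) and 16.7% of proteasome genes (8 of 48) were members. For aminoacyl-tRNA synthetases it was 14.7% (5 of 34) and for cytosolic ribosomal proteins 10.7% (8 of 75). Every member of these 6 groups was marked in all 3 lists, beside 96.0% of all paired genes, and of their non-divergent genes between 86.1% and 100% were marked in the replicated list. Mrpl32/Psma2 joins a mitochondrial ribosomal protein with a proteasome subunit, 75 bp apart, under 2361 bp (D 2197 and C 4434 bp). Rps28/Ndufa7 joins a cytosolic ribosomal protein with a complex I subunit, 10 bp apart, under 2360 bp (2210 and 2524 bp). At Psmb1/Tbp, with a catalytic-core proteasome subunit and the TATA-binding protein, 137 bp apart, 3232 bp of the 4350 bp domain (4092 and 4717 bp) lay in Psmb1 and 980 bp in Tbp. Atp5c1/Kin, with a subunit of the ATP synthase, leaned to Atp5c1 by 2506 against 1086 bp in a domain of 3676 bp (3444 and 4858 bp). Zwilch/Rpl4, a kinetochore gene and a ribosomal protein gene, leaned to Rpl4 by 2389 against 806 bp in 3467 bp (2964 and 3735 bp). The group's gene held the longer side at these 3 pairs and the shorter side at the next 2. Kars/Terf2ip, the lysyl-tRNA synthetase and a telomere protein, leaned to Terf2ip by 2109 against 1053 bp in 3238 bp (2903 and 3236 bp). Ptcd3/Polr1a, with the largest subunit of RNA polymerase I, leaned to Ptcd3 by 1329 against 888 bp in 2521 bp (2123 and 2878 bp). Group membership was set by gene symbol, so a few assembly factors are counted with the subunits.

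Voltage-gated channels (108 genes), synaptic vesicle release genes (25) and olfactory receptors (1093) had 0 members. Of 47 glutamate and GABA receptor genes 1 was a member. This was Grik5, a kainate receptor subunit, 221 bp from Zfp574, with a domain of 5287 bp (D 5280 and C 5290 bp) that reached 3985 bp into Grik5 and 1080 bp into Zfp574. Cdk5, a kinase of neurons, lies 307 bp from the anion exchanger gene Slc4a2, with 972 bp of the 3919 bp domain in Cdk5 and 2639 bp in Slc4a2. Zfp zinc finger genes (20 of 391, 5.12%), solute carriers (17 of 371, 4.58%) and collagens (2 of 44) had shares below that of all genes. Both collagens were Col4a4 and Col4a3, of basement membranes, and their shared domain was narrow, at 793 bp (519 and 953 bp).

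The broadest domain at a divergent pair lay over Cdc40/Wasf1, with 10667 bp, of which 7567 bp were in Wasf1, an actin regulator of neurons, and 2935 bp in Cdc40, a splicing factor. Its breadth was 9546 bp in D and 17838 bp in C (13692 ± 5863 bp, SD, n = 2), the widest difference in bp among the named pairs. Tshz1/Zadh2 had 8748 bp (5884 and 9490 bp) and Klhl28/Togaram1 8089 bp (7934 and 8171 bp), of which 6776 bp lay in Togaram1, a gene of cilia. Srgap2/Fam72a had 6862 bp (6452 and 7334 bp), with 4928 bp in Srgap2, which shapes neurites and dendritic spines. Nr2e1/Ostm1 had 6725 bp (5877 and 6845 bp), with 4419 bp in Nr2e1, a nuclear receptor of neural stem cells. Its strongest peak ranked only at the 48.5th percentile of the list. Hnrnpdl/Enoph1 (6391 bp) and Hnrnpa2b1/Cbx3 (6076 bp) leaned to the gene of the RNA-binding protein, by 4057 and 3709 bp.

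The leading pairs by signal were not those with the broadest domains. Among the broadest named pairs the strongest peak ranked from the 48.5th percentile (Nr2e1/Ostm1) to the 98.3rd (Klhl28/Togaram1). In the replicated list and pool D the leading pair by signal was Iqch/Aagab, at the 100th percentile in pool D, the 99.96th in pool C and a breadth of 2677 bp (2477 and 2751 bp). In the replicated list it was followed by Sqstm1/Mgat4b (99.99th percentile in pool C, above Iqch/Aagab), with the gene of the autophagy receptor p62, at 3506 bp, Fam126b/Ndufb3 at 3216 bp, Srsf7/Ttc39d at 3103 bp and Ap3m1/Adk at 2671 bp. Adk encodes adenosine kinase and Srsf7 a splicing factor. Each had 1 peak over both ends in all 3 lists. Srsf7/Ttc39d ranked at the 84.5th percentile in pool D, and the others at or above the 99.0th.

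Pairs with separate peaks had a short break between them. The break measured a median of 118 bp in the replicated list, from 78 to 314 bp at the 31 pairs, and 123 bp at 47 pairs in pool D and 122 bp at 23 pairs in pool C. Senp8/Myo9a and B3galt6/Sdf4 were separate in all 3 lists. Eif3k/Map4k1, Nop14/Grk4, Med29/Paf1 and Chtf18/Rpusd1 were separate in pool D and joined in pool C. Rgl1/Arpc5 went the other way, with 1 peak over both ends in pool D and separate peaks in pool C. Lrrc75a/Mmgt2 was separate in pool D and covered only at the end of the plus-strand gene in pool C. Whether a break is present thus depends on the list at many pairs. B3galt6/Sdf4 joins a glycosyltransferase gene and a calcium-binding protein gene. The sequence between their 5′ ends is GC-rich (71.6%) and holds none of the 8 motifs, and is shown for that reason. It repeats a similar short unit many times. How reads were placed in this repeat was not tested, so the break between the peaks is uncertain there.
B3galt6/Sdf4 (chr4:155992650-155992871): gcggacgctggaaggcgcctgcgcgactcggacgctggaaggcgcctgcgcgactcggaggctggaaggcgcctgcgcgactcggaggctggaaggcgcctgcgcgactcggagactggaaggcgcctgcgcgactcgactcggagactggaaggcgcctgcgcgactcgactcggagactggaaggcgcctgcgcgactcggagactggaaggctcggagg

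At 40 pairs a peak covered 1 end only. They had a median ratio of observed to expected CpG of 0.734 at the covered gene and 0.664 at the other, and the covered gene was the richer at 28 (70%). In pool D the medians were 0.743 and 0.703 and the covered gene was the richer at 28 of 47 (59.6%), and in pool C at 24 of 35 (68.6%). The 10 examples with the widest gaps include genes known from liver, muscle, kidney and tongue. At Foxa3/Sympk the domain stopped 735 bp short of Foxa3, a liver transcription factor gene (D 746 and C 437 bp), and covered Sympk, a polyadenylation factor gene. At Klc3/Ckm it stopped 406 bp short of Ckm, the muscle creatine kinase gene (407 and 405 bp). At Tas1r1/Nol9 it stopped 417 bp short of the taste receptor gene (420 and 417 bp), and at Kirrel2/Nphs1 182 bp short of the gene of nephrin, a protein of the kidney filter (204 and 165 bp). At Actn3/Zdhhc24 it stopped 124 bp short of Actn3, of fast muscle (191 and 55 bp), and at Obsl1/Inha 224 bp short of the inhibin gene Inha (264 and 223 bp). The others were Haghl/Ccdc78, Tbc1d10c/Ppp1ca and Sirt6/Ankrd24, which stopped 633, 247 and 329 bp short of Ccdc78, Tbc1d10c and Ankrd24, and Dedd2/Zfp526, where a second peak lay further into Dedd2 and only its 5′ end was bare.

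The 30 pairs without a replicated peak were mostly poor in CpG. Of these, 28 had no peak in any of the 4 lists, and the median ratio of observed to expected CpG was 0.294 at their genes and 0.780 at marked pairs. Among the 20 pairs with both genes under 0.3, 13 were unmarked in all lists. The distance between the 5′ ends was similar, at medians of 149.5 and 127 bp. They include Patl2/Terb2, with a meiotic telomere gene, Nmur1/Tex44, Lypd4/Dmrtc2, Smyd1/Cd8b1, with a muscle gene and a T cell gene, Duox2/Duoxa2, which make hydrogen peroxide in the thyroid, and Bhmt2/Dmgdh, of methyl group metabolism in liver. At 11 of the 28 a peak lay at another annotated start of a member, such as Trim28, Ccnt1, Dgcr2, Rab3il1, Pecam1 and Aspa, an enzyme gene of oligodendrocytes. The outermost annotated 5′ end that defines these pairs was then not the marked start.

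The H2A and H2B histone genes formed 12 divergent pairs, from 176 to 306 bp apart, of which 9 were marked, beside 96.0% of all pairs and 60.8% of non-divergent histone genes. Their domains ran from 1145 to 7028 bp with a median of 3673 bp over the 9 pairs, and at 5 pairs the domain also held the 5′ end of a further histone gene. Hist1h2ae/Hist1h2bg and Hist1h2bf/Hist1h2ad shared the same domain of 7028 bp (D 6862 and C 7251 bp), which is counted for each of them. Their signals were moderate, with the strongest peak between the 43.1st and the 88.5th percentile. Hist1h2ag/Hist1h2bj differed most by ratio between pools among the H2A and H2B pairs, at 4481 bp in the replicated list, 1451 bp in D and 4479 bp in C. The gap held 2 to 5 CCAAT boxes in each of the 12, and at least 2 in 39.6% of all pairs that lie at the same distances, histone pairs included.

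Unmarked were Hist1h2bq/Hist1h2ao, Hist1h2ap/Hist1h2br and Hist1h2ba/Hist1h2aa. The first of these are CpG-rich, with a ratio of observed to expected CpG of 0.927 and 0.937, and hold 3 CCAAT boxes each, like the marked pairs. With 200 bp on each side they are inverted copies of each other, compared over 669 and 637 bp. They differ by 32 single-base edits, which equals the difference in length. All edits are thus inserted or missing bases, and the identity of 95.2% reflects the unequal lengths. Reads from either copy may not be placed uniquely, and the absence of a peak there is uncertain. The X-linked pairs Gm9112/Dmrtc1b and Dmrtc1a/1700011M02Rik were likewise inverted copies (95.7% identity) and unmarked. Whether the authors dropped such reads is not given in the sources used here. The third pair, Hist1h2ba/Hist1h2aa, encodes the H2B and H2A variants of male germ cells. A marked histone pair is shown with the near-identical unmarked ones.
Hist1h2ag/Hist1h2bj (chr13:22042945-22043213): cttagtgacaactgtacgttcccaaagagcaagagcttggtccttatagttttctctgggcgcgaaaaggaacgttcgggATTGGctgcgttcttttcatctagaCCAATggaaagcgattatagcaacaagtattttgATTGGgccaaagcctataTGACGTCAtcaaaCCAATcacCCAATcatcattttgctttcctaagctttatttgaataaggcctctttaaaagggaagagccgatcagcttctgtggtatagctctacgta
Hist1h2bq/Hist1h2ao (chr13:21810198-21810464): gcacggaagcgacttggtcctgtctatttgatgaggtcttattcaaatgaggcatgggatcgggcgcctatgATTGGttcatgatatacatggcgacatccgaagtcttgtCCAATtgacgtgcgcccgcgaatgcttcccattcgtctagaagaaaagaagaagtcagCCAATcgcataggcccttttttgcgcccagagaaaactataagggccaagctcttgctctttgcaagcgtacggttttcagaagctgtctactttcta
Hist1h2ap/Hist1h2br (chr13:21833508-21833742): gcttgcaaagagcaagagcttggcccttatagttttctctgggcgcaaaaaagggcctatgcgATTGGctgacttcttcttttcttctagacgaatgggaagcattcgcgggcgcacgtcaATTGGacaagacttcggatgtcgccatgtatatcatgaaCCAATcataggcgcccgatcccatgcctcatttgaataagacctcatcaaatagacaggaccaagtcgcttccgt

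Domain breadth was set side by side for pairs with and without each motif between the genes. In the 300 bases centred between the 5′ ends, CCGGAAG was found at 211 pairs (28.0%), and the 209 marked ones had a median domain of 2475 bp, against 2584 bp for the other 515. In pool D these medians were 2284 and 2338 bp and in pool C 2635 and 2772 bp. GGGCGG, found at 513 pairs (68.0%), went the other way, with 2576.5 bp at the 504 marked ones and 2468.5 bp at the other 220. For GGGCGG the medians were 2338 and 2279 bp in pool D and 2767 and 2637.5 bp in pool C. Domains were slightly broader with AAGATGGC too, at 2572.5 against 2545 bp in the replicated list (2340.5 and 2319 bp in D, 2730.5 and 2725.5 bp in C). All 64 pairs with AAGATGGC, all 38 with CGCATGCG, all 33 with TGACGTCA and all 81 with CACGTG there were marked, beside 96.0% of all pairs. Of 340 pairs with CCAAT 324 were marked, and of 33 with TATAAA 31. Which motif had the widest difference in breadth depended on the list. In the replicated list it was TGACGTCA, with 2298 bp at the 33 pairs with it and 2560 bp at the others (2213 and 2331 bp in D, 2635 and 2726 bp in C). In pool D it was CGCATGCG, with 2209.5 and 2330.5 bp, and in pool C CCAAT, with 2642.5 and 2808 bp.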

How the data were processed

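H3K4me3 ChIP-seq peaks came from 4 libraries, 2 technical replicates of each of 2 pools, which gave 1 peak list per pool, 1 on both pools together and 1 of replicated peaks. The authors deposited each peak with a signal on the scale of their caller, its −log10 q and the place of its summit. Per the labels the coordinates are on mm10. The peak caller, aligner and depth were not given in the sources used here. The lists reach down to a −log10 q of 0.26 in the replicated list. Signal was used only as a rank within a list. Sequences and genes came from the GRCm38 assembly and GENCODE M21 (Python 3.11.15, numpy 2.4.6, pysam 0.24.0, samtools 1.23.1). Sequences of copies were aligned with edlib 1.3.9.post1. Overlap of a window with any peak by 1 bp or more made a gene or pair marked, and peaks within 1 kb were joined into domains. The scripts were tested on simulated data. No test across samples was made, since each pool has 1 list, and values over the pools are mean ± SD (n = 2). Named pairs were the textbook pairs, the broadest, strongest, most even and most one-sided domains, pairs with separate or single-end peaks, unmarked pairs, those nearest the distance limit and the first pairs by symbol of each gene group. Rps28/Ndufa7, Cdk5/Slc4a2, Duox2/Duoxa2, Smyd1/Cd8b1 and Bhmt2/Dmgdh, and the unmarked pairs with a near-identical copy or another marked start, were chosen after their values were seen. The members and lists were chosen with earlier results of these data known. Nothing in the labels says that the pools share no animals. Alternatives were each list, a stricter threshold, other distances, overlaps, windows and joining gaps, and cleaner pairs or controls. The 5′ end of the principal transcript was an alternative chosen after seeing the data. Some pairs that meet the naming rule are not reported here.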

Additional observations from a re-analysis of the deposited data

How the results depend on the processing

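Each of the 8 values that compare the classes was recomputed under those of 16 settings that bear on it. Beside the single-pool lists, whose spread sets the scale, this gave 60 values, of which 51 lay within 1 SD of the pools. That SD was wide for breadth (286 bp at pairs) and very narrow for the share of summits between the 5′ ends (0.00932 percentage points). All values of breadth, reach and the share with 1 peak over both ends lay within it. The count of 51 thus depends on this scale and is no measure of robustness by itself. Domains were broader at divergent pairs under all 12 settings that recomputed breadth, with a ratio of 1.18 to 1.23, and the downstream reach was shorter under all 12 that recomputed it. The difference in marked share was 36.8 to 40.2 percentage points over the 14 settings that changed either share. The marked share of pairs moved to 96.5% with a largest distance of 500 bp, to 94.8% where a summit had to lie in the region, to 96.9% for pairs with no shared gene and no Gm or Rik symbol, and to 97.0% with the 5′ end of the principal transcript, chosen after seeing the data. That definition gave 779 pairs, 637 of them in common. The marked share of non-divergent windows moved to 54.6% where a summit had to lie in the window. The share of summits between the 5′ ends moved to 1.82% up to 500 bp, 3.38% without shared or Gm or Rik genes and 4.10% with principal transcripts. It rose to 19.3% with overlapping pairs included, where the stretch between the 5′ ends lies inside both genes. Counting any coding start, also added after seeing the data, 96.8% of paired and 61.2% of non-divergent genes were marked.

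No paired analysis was possible because the results come from no test, and the comparison of the classes within each pool is given as values. Both technical replicates share 1 alignment, so leaving out a replicate leaves a single-pool list. Sequencing depth is unknown, and the break between peaks, peaks in 1 pool and breadth were not corrected for it. The outermost annotated 5′ end is not always the start in use. How reads of near-identical copies, or of the hybrid's second genome, were placed on mm10 was not tested.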
